A study of Homo sapiens with 18 samples.

Results

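The genes described here are 10 members of the pathway of YAP and TEAD, found by symbol among the 26475 genes of an RNA-seq table of uveal melanoma cells. They are the co-activators YAP1 and WWTR1 (the gene of TAZ), the DNA-binding partners TEAD1 and TEAD4, the feedback regulators LATS2, AMOTL2 and AJUBA, and the target genes CTGF (CCN2), CYR61 (CCN1) and ANKRD1. Uveal melanoma arises from melanocytes of the eye, and the established uveal melanoma lines Mel92.1 and MP41 were used. Each line was grown for 48 h in DMSO or in 1 µM of UNC0642 or A366, with 3 replicates in each of the 6 groups and 18 libraries in all. Both compounds inhibit EHMT2 (G9a), a methyltransferase of lysine 9 of histone H3, and its relative EHMT1. They are of different chemical classes, UNC0642 being a quinazoline and A366 a spirocyclic indole. By design the groups of a line differ in the inhibitor, while their libraries also differed in the share of ribosomal RNA, as given below. The comparisons ask how the pathway genes responded to each inhibitor, whether the inhibitors differed at the same dose and time, and how the lines differ.

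YAP and TAZ shuttle between cytoplasm and nucleus and bind no DNA themselves. In the nucleus they bind TEAD proteins and raise transcription of genes such as CTGF and CYR61. The Hippo kinases MST and LATS phosphorylate YAP and TAZ and keep them out of the nucleus, and AMOT family proteins bind and retain them. LATS2 and AMOTL2 are themselves targets of YAP, so that the pathway restrains itself. In uveal melanoma, mutant Gq proteins are known to drive YAP into the nucleus. The activity of YAP is set largely by its phosphorylation and location, neither of which an mRNA level shows. The genes lie, by GENCODE 29 on GRCh38 and with counts taken over whole genes, at chr11:102110461-102233423 (YAP1, plus strand), chr3:149517235-149736714 (WWTR1, minus), chr11:12674591-12944483 (TEAD1, plus), chr12:2959330-3040673 (TEAD4, plus), chr13:20973032-21061547 (LATS2, minus), chr3:134355874-134375479 (AMOTL2, minus), chr14:22971174-22982642 (AJUBA, minus), chr6:131948176-131951373 (CTGF, minus), chr1:85580761-85583962 (CYR61, plus) and chr10:90912096-90921276 (ANKRD1, minus). Antisense genes overlap YAP1, WWTR1, TEAD1, LATS2 and CTGF, and whether counting used the strand is not given in the sources used here.

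The libraries labelled A366 replicates 2 and 3 of either line carried the genes of the other line. Over 22 genes that are on in Mel92.1 and off in MP41 and 24 of the opposite kind, with the 10 members left out, these 4 libraries held at most 0.0423% of the DMSO level of the genes of their labelled line and 95.9% to 120% of those of the other. The other 14 libraries held at most 0.413% of the other line's genes. The study's own table of changed genes also lists these 4 libraries under the other line. They were therefore placed in the other line throughout, and the main A366 results of the members are also given as labelled and without the 4 libraries, which leaves 1 A366 library in each line. The libraries held 23601156 to 62941462 counts each (median 41955693). The share taken by 4 ribosomal RNA genes ran from 3.31% to 32.8% and was highest in Mel92.1 UNC0642 replicate 1, which was also the shallowest library. Of 8 melanocyte markers, 7 in Mel92.1 (all but S100B) and 8 in MP41 were at 1 CPM (counts scaled to 1e6 per library) or more in every group, summing to 15062 to 24416 CPM, and PTPRC, CD3E, EPCAM, KRT5, PECAM1, CDH5, COL1A2 and DCN were under 1 CPM on average in every group. Among the markers of other cell types, the macrophage gene CD68 (29.2 to 173 CPM as group means) and the fibroblast genes LUM (15 to 31.4) and COL1A1 (7.78 to 18.7) were over 1 CPM in every group, PDGFRA was in MP41 with DMSO and with UNC0642, CDH1 was in Mel92.1 with UNC0642, and VWF was in MP41 with A366 (2.57 CPM against 0.379 with DMSO). Their part in the results was not tested. The study's methods speak of biological replicates in general, and the labels do not say which cultures these libraries came from, so p-values measure the spread between these libraries, which may be technical.

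TEAD proteins bind a short core motif, written CATTCC on one strand and GGAATG on the other. RefSeq (GRCh38.p14) windows of 250 bases before and 50 after the start of transcription held entries for 7 of the 10 members. The windows of 4 members are shown, 5′ to 3′ along the gene, because CTGF, AMOTL2 and AJUBA are the targets that moved with the inhibitors and ANKRD1 is the target that stayed near 0 counts. Capitals mark the core on either strand.
CTGF (chr6:131951323-131951622, minus strand): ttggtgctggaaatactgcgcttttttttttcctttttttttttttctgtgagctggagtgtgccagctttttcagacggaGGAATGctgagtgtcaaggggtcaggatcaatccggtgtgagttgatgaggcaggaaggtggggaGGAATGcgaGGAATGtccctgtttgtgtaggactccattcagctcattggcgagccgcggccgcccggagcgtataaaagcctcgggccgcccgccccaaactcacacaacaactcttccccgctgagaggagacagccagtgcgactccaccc
ANKRD1 (chr10:90921038-90921337, minus strand): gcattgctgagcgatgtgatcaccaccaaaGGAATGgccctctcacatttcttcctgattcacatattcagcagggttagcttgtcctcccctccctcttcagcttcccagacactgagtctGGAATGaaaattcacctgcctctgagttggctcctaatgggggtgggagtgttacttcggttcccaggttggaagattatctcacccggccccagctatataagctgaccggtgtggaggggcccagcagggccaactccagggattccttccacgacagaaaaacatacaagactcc
AMOTL2 (chr3:134375368-134375667, minus strand): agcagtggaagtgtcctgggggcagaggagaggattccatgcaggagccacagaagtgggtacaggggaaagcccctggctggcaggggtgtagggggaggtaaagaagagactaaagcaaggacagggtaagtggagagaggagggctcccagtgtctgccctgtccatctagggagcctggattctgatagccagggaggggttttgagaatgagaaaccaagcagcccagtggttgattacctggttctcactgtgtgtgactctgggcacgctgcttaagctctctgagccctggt
AJUBA (chr14:22982502-22982801, minus strand): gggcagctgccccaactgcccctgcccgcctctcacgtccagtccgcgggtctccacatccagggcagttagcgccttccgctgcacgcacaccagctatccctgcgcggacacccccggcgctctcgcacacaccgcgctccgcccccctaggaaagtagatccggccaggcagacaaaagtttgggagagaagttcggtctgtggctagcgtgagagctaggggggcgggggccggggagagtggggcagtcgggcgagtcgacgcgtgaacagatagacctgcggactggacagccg
The window of CTGF held 3 cores, whose first bases lie at -169, -104 and -95 from the start, and that of ANKRD1 held 2, at -220 and -128. Of 27305 windows of this length, 14.0% held 1 or more cores, 1.37% held 2 or more and 0.146% held 3 or more. YAP1 held 1 core at -162 and LATS2 held 1 at 10 bases past the start, while WWTR1, AMOTL2 and AJUBA held 0. The WWTR1 window, chr3:149703224-149703523, lies inside the gene span given above, whose start on the minus strand is at 149736714. That outer start of WWTR1 was not searched. The site of AP-1, the FOS and JUN factors that often sit beside TEAD, was searched as TGANTCA, where N is any base and the reverse strand reads the same. This pattern was found in 7.76% of windows and among the 7 members only in ANKRD1, at -195, where it reads TGATTCA. The pattern is wider than the usual AP-1 site, whose middle base is C or G. The share therefore also counts other sequences, and the ANKRD1 match is not that usual site. No match in a window says only that these letters are not there.

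**Figure D1:**
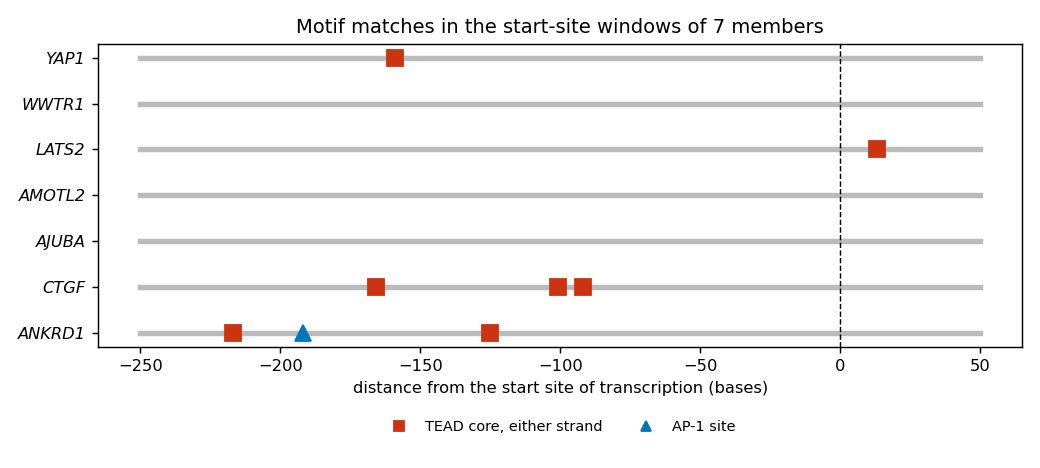
Matches of the TEAD core (squares) and of the wider AP-1 pattern TGANTCA (triangle) in the start-site windows of the 7 members with a RefSeq entry. Each is drawn at its centre against the distance from the start of transcription in bases. CTGF holds 3 cores, ANKRD1 holds 2 cores and 1 match of TGANTCA, YAP1 and LATS2 hold 1 core each, and WWTR1, AMOTL2 and AJUBA hold none.

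Without inhibitor, the machinery of the pathway was on in both lines, except for WWTR1. Levels between genes are given as CPM per kilobase of the longest transcript, as mean ± SD over 3 DMSO libraries. In MP41, WWTR1 (45.1 ± 0.914) and YAP1 (43.2 ± 1.12) stood highest and close together. TEAD4 (15.7 ± 0.522), TEAD1 (13.1 ± 0.214), LATS2 (11.4 ± 0.956), AMOTL2 (7.13 ± 0.566), CYR61 (6.01 ± 0.822), CTGF (5.45 ± 0.562) and AJUBA (2.63 ± 0.173) followed. In that order the libraries of CYR61 and CTGF overlapped, and those of the other neighbours did not. In Mel92.1 the order was YAP1 (25.6 ± 3.54), TEAD4 (19.8 ± 0.282), AMOTL2 (19.5 ± 0.991), TEAD1 (11.6 ± 3.29), LATS2 (10.6 ± 1.93), AJUBA (7.97 ± 0.233), CYR61 (4.57 ± 0.267) and CTGF (1.61 ± 0.156). The libraries of TEAD4 and AMOTL2 overlapped there, as did those of TEAD1 and LATS2. WWTR1 (0.022 ± 0.023) and ANKRD1 (0.047 ± 0.024) closed the list in Mel92.1, and ANKRD1 (0.074 ± 0.072) in MP41.

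**Figure D2:**
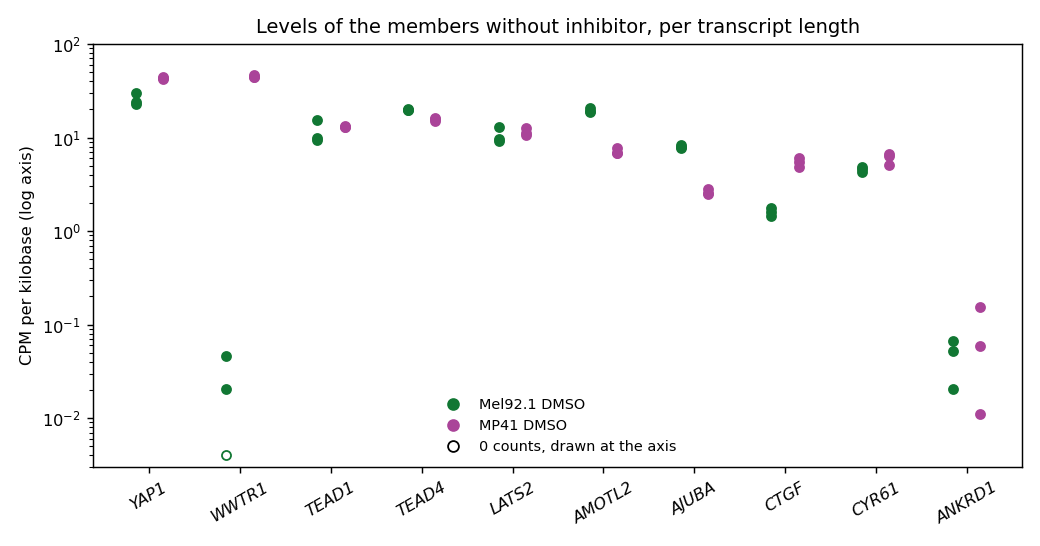
Level of each member in the 3 DMSO libraries of Mel92.1 (green) and of MP41 (purple), in CPM per kilobase of the longest transcript on a log axis, with each point a library and an open point for 0 counts. WWTR1 is at 45.1 in MP41 and at the bottom of the axis in Mel92.1, and ANKRD1 is near the bottom in both lines.

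The lines differed in most members. In the fit of all 18 libraries, 69.4% of the 15799 genes tested differed between the DMSO groups at an adjusted p under 0.05 (quasi-likelihood test of edgeR, p-values adjusted after Benjamini and Hochberg, as in all comparisons here), 34.5% higher and 34.8% lower in Mel92.1. Of the 9 members tested, 3 were higher in Mel92.1 and 4 lower, close to that background. WWTR1 differed most among the members. Its counts were 5, 0 and 9 in the DMSO libraries of Mel92.1 and 10375, 9989 and 10300 in those of MP41, a log2 difference of -10.95 as fitted. With so few counts in Mel92.1 that value depends on the prior count, and it ran from -13.06 to -10.43 over 17 alternatives. No Mel92.1 library under any treatment held more than 13 counts of it, and no MP41 library fewer than 8503. Mel92.1 thus had YAP1 mRNA with next to none of the mRNA of its relative TAZ. In bulk RNA, fewer cells with a transcript and less of it per cell cannot be told apart.

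The other co-activator, YAP1, was also lower in Mel92.1, at 160, 130 and 125 CPM against 232, 227 and 239 (log2 difference -0.75 ± 0.11, ± SE here and for every log2 difference, adjusted p = 1.20e-05). The feedback genes AMOTL2 (1.45 ± 0.09) and AJUBA (1.60 ± 0.12) were higher in Mel92.1 on the same log2 scale, with adjusted p of 1.90e-10 and 1.48e-09, and TEAD4 was slightly higher (0.34 ± 0.09, adjusted p = 0.00345), although with an offset for the GC content and length of genes it was lower (-0.24). CTGF was lower, at 4.13, 3.41 and 3.79 CPM against 12.7, 11.5 and 14.1 (-1.75 ± 0.23, adjusted p = 2.65e-06). CYR61 was lower by less (-0.39 ± 0.15, adjusted p = 0.0309), and that call was lost in the fits without MP41 DMSO replicate 2 or 3 or any Mel92.1 DMSO replicate, with values from -0.42 to -0.31. TEAD1 (-0.18 ± 0.21) and LATS2 (-0.11 ± 0.13) were not called, and with the same offset TEAD1 was called higher (0.43). The targets and feedback genes therefore did not share a direction between the lines. Both lines are described with the same 10% serum in the labels but with more serum for MP41 in the study's methods, so the line and its culture cannot be told apart.

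ANKRD1, a muscle-type ankyrin repeat protein and a common YAP target, was hardly measured. It held between 0 and 22 counts in every library, the highest in Mel92.1 UNC0642 replicate 3, and passed the filter on low counts in no fit. A change in it was not detectable at this depth. WWTR1 likewise passed the filter only in MP41 and in the fit of all libraries, which left 8 members to test in Mel92.1 and 9 in MP41.

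In MP41, UNC0642 lowered the secreted targets CYR61 and CTGF, and A366 raised CYR61, CTGF, AJUBA and AMOTL2. In Mel92.1 the fitted changes of all 8 members tested, these 4 genes among them, were negative with UNC0642 and positive with A366. Against DMSO only AJUBA was called there, lower with UNC0642. The inhibitors form 1 pair, compared in each line, with p-values adjusted over all genes of a line. At the same dose and time, all 4 genes were higher with A366 than with UNC0642 in MP41, by 1.68-fold to 2.99-fold, and AJUBA was in Mel92.1, by 1.72-fold. The mRNAs of YAP1 and TEAD4 passed the test under neither inhibitor in either line. The inhibitor comparisons of a line share its DMSO libraries.

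**Figure D3:**
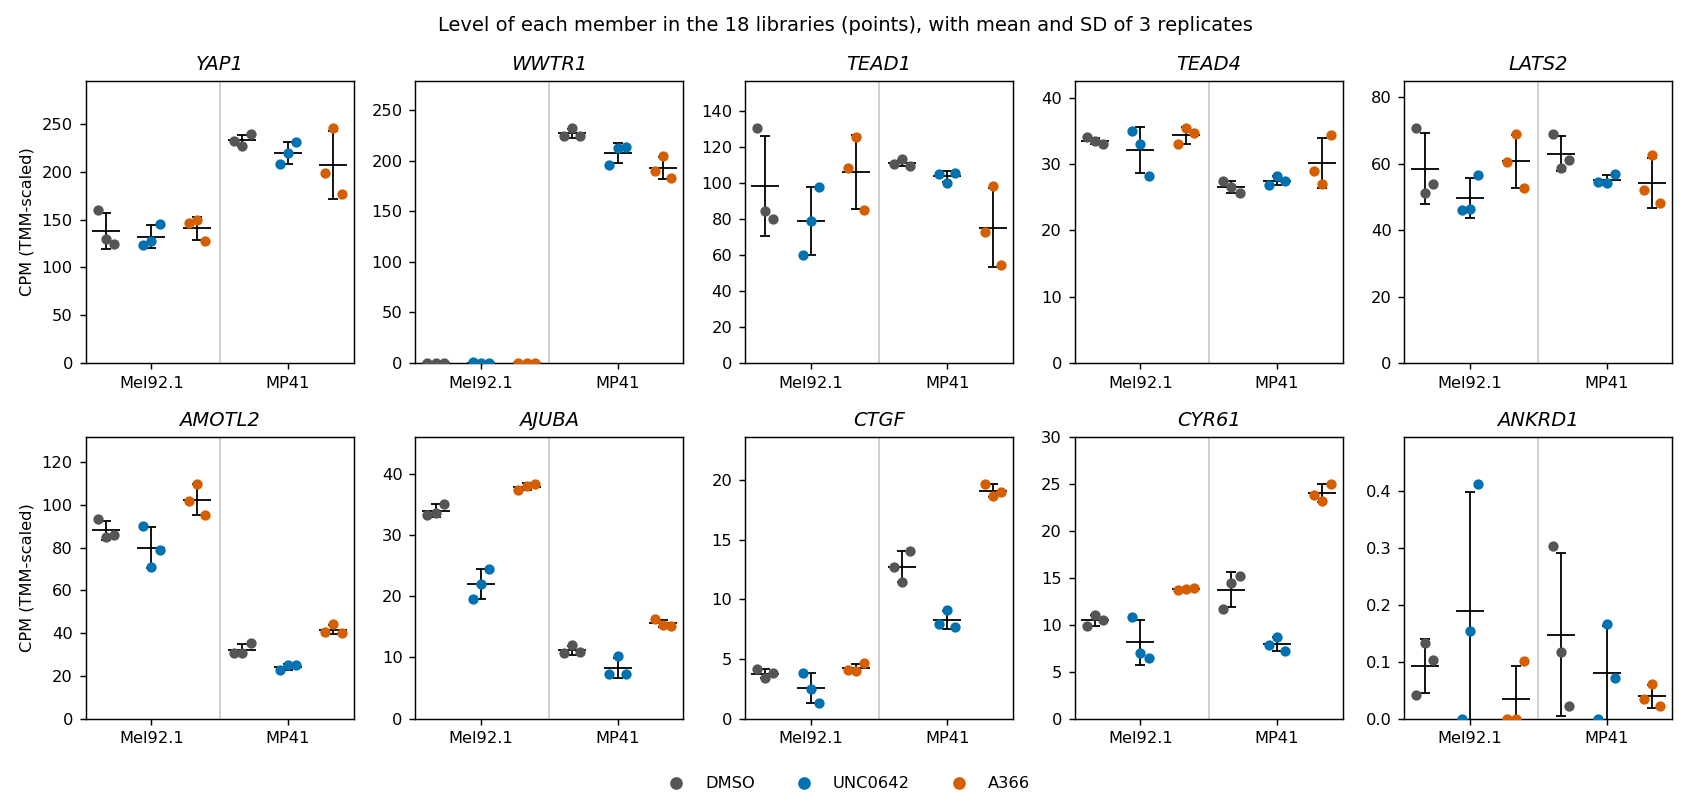
CPM of each member (1 panel a gene) in the 18 libraries, with a point for each library, a horizontal bar for the mean and error bars for the SD of 3 replicates, in DMSO (grey), UNC0642 (blue) and A366 (orange). In MP41 the 3 A366 libraries of CTGF, CYR61, AJUBA and AMOTL2 lie above all DMSO and UNC0642 libraries, and WWTR1 lies near 0 in Mel92.1.

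The numbers behind this are best read against the genes as a whole. With UNC0642 in Mel92.1, 0.688% of 14528 genes were called and 0.138% were called lower, and 1 of the 8 members was called, lower. All 8 members had a negative fitted change, with a median of -0.28 on the log2 scale against -0.02 over all genes. Only 1 of the 8 was at an unadjusted p under 0.05 in edgeR, beside 9.93% of all genes. YAP1, TEAD1 and LATS2 varied together across the libraries, so the 8 signs are not separate observations. The share of all genes with a negative change was not counted. With UNC0642 in MP41, 0.241% of 14956 genes were called and 0.127% were called lower, and 2 of the 9 members were called, both lower. Here 8 of 9 fitted changes were negative, with a median of -0.20 against 0.00, and 4 were at an unadjusted p under 0.05 in edgeR, beside 8.8% of all genes. With A366 in Mel92.1, 0.213% of genes were called and 0 of the 8 members, where edgeR gave 2 at an unadjusted p under 0.05, DESeq2 called 0 and limma voom called 6. A366 in MP41 was of another order, with 46% of genes called, 22.5% higher and 23.5% lower, and 4 of the 9 members higher and 2 lower. The ribosomal RNA genes took 5.93% to 10.96% of the counts of the MP41 A366 libraries, against 3.31% to 5.10% with DMSO and 3.55% to 5.14% with UNC0642, and the part of this share in the A366 results was not tested.

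The inhibitors were also compared with each other. Of A366 against UNC0642 in Mel92.1, 0.165% of genes were called and 0.103% higher, with 1 of the 8 members called, higher. In MP41 43.1% of genes were called, 21.1% higher and 22% lower, with 4 of the 9 members higher and 1 lower. In MP41 a call for A366 therefore says little by itself, since nearly every second gene moved. For that reason the sizes of the changes of CYR61, CTGF and AMOTL2 with A366 in MP41 were set against those of all genes. There AJUBA lay in size between AMOTL2 and CTGF, TEAD1 between CTGF and CYR61, and WWTR1 below AMOTL2. How many of all genes had groups without overlap was not counted, so lack of overlap is given as a description.

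CYR61 encodes a secreted matrix protein that binds integrins. In MP41 it stood at 11.6, 14.4 and 15.2 CPM with DMSO, at 7.83, 8.70 and 7.25 with UNC0642 and at 23.8, 23.2 and 25.1 with A366. The 3 groups did not overlap. UNC0642 lowered it by 0.80 ± 0.11 on the log2 scale (-0.80 as fitted, adjusted p = 0.0164), and A366 raised it by 0.78 ± 0.11 (adjusted p = 0.000459), a change larger than that of 89.2% of genes. The difference between A366 and UNC0642 was 1.58 ± 0.11 (95% interval 1.33 to 1.82, adjusted p = 6.04e-06), or 2.99-fold, and exceeded in size that of 98.2% of the genes tested. In Mel92.1 the values were 9.85, 11.1 and 10.5 in DMSO, 10.9, 7.01 and 6.47 in UNC0642 and 13.7, 13.8 and 13.9 in A366. All A366 libraries lay above all others there, and UNC0642 replicate 1 lay within the DMSO range.

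The fitted changes of CYR61 in Mel92.1 were -0.39 ± 0.18 with UNC0642 (adjusted p = 0.517), 0.40 ± 0.18 with A366 (adjusted p = 1.00) and 0.79 ± 0.18 between the inhibitors (95% interval 0.38 to 1.2, adjusted p = 0.209), none of them past the threshold. Without Mel92.1 UNC0642 replicate 1, the library with 32.8% ribosomal RNA, CYR61 fell by 0.64 (-0.64 ± 0.10, adjusted p = 0.0188, with a range of 0.00679 to 1.00 over 18 alternatives). The part of the ribosomal share in this difference was not tested. Between the inhibitors in Mel92.1, CYR61 was called higher with A366 in 3 of 18 alternatives. These were DESeq2, limma voom and the fit without that UNC0642 replicate. Limma voom also called its fall with UNC0642 and its rise with A366 there. In MP41 the fall of CYR61 with UNC0642 lost its call without DMSO replicate 2 or 3 or UNC0642 replicate 1 or 3, with values from -0.79 to -0.72.

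CTGF, a secreted matrix protein of the same family and the usual readout of YAP, followed it. In MP41 it stood at 12.7, 11.5 and 14.1 CPM with DMSO, at 7.96, 9.11 and 7.68 with UNC0642 and at 19.7, 18.7 and 19.0 with A366. The 3 groups again did not overlap. The fitted changes were -0.63 ± 0.10 with UNC0642 (adjusted p = 0.0307), 0.56 ± 0.10 with A366 (adjusted p = 0.00123, larger in size than 77.5% of genes) and 1.19 ± 0.10 between the inhibitors (95% interval 0.97 to 1.42, adjusted p = 2.29e-05, larger than 96.4%). The call of the fall with UNC0642 rested on all 6 libraries, since leaving out any one of them gave an adjusted p above 0.05, with values from -0.71 to -0.56.

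In Mel92.1 CTGF was low. Its DMSO libraries held 4.13, 3.41 and 3.79 CPM, its UNC0642 libraries 3.83, 2.46 and 1.31, or 63, 96 and 70 counts, and its A366 libraries 4.09, 4.01 and 4.67. UNC0642 overlapped DMSO and its libraries spread over nearly 3-fold, while all A366 libraries lay above all UNC0642 libraries. None of the fitted changes was called, at -0.62 ± 0.34 with UNC0642, 0.17 ± 0.33 with A366 and 0.79 ± 0.34 between the inhibitors (adjusted p = 0.682, 95% interval 0.03 to 1.55). Without UNC0642 replicate 1 the change with UNC0642 was -1.02 ± 0.25, and without replicate 3 it was -0.29 ± 0.26, neither called. Limma voom called the difference between the inhibitors.

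AJUBA, a LIM protein of cell junctions that holds back LATS kinases, was the member that passed the test in Mel92.1. There it stood at 33.2, 33.6 and 35.1 CPM with DMSO, at 19.5, 22.1 and 24.4 with UNC0642 and at 37.3, 37.9 and 38.4 with A366, without overlap. The fall with UNC0642 was -0.63 ± 0.09 (adjusted p = 0.0135, larger in size than 89.3% of genes), the change with A366 was 0.16 ± 0.09 and not called, and the difference between the inhibitors was 0.79 ± 0.09 (95% interval 0.58 to 0.99, adjusted p = 0.0119). In MP41 it stood at 10.7, 12.0 and 10.9 with DMSO, at 7.29, 10.2 and 7.25 with UNC0642 and at 16.3, 15.4 and 15.1 with A366. UNC0642 gave -0.45 ± 0.13 (adjusted p = 0.286), A366 gave 0.45 ± 0.13 (adjusted p = 0.0124) and the inhibitors differed by 0.90 ± 0.13 (95% interval 0.62 to 1.18, adjusted p = 0.000437). The fall in Mel92.1 lost its call without DMSO replicate 2 or 3 or UNC0642 replicate 2 (-0.64 to -0.61), the difference between the inhibitors there without UNC0642 replicate 2 or any A366 replicate (0.77 to 0.80), and the rise in MP41 without A366 replicate 1 (0.43, adjusted p = 0.0509). AJUBA overlaps a protein-coding gene model on its own strand, AL132780.3, so the reads of the 2 could have been shared in counting.

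AMOTL2, an angiomotin that binds YAP and holds it in the cytoplasm, rose with A366 in MP41. It stood at 30.8, 30.7 and 35.2 CPM with DMSO, at 22.8, 25.3 and 25.0 with UNC0642 and at 40.6, 44.2 and 40.1 with A366, without overlap. The change was -0.41 ± 0.08 with UNC0642 (adjusted p = 0.0918), which passed the threshold in 6 of 18 alternatives, 0.34 ± 0.08 with A366 (adjusted p = 0.00466, but 0.22 with an adjusted p of 0.0532 with GC content and length offset and the replicate block) and 0.75 ± 0.08 between the inhibitors (95% interval 0.58 to 0.93, adjusted p = 0.000102). The rise with A366 was larger in size than that of 54.8% of genes, so it was of middling size in that comparison. In Mel92.1 the values were 93.2, 85.1 and 85.9 in DMSO, 90.1, 71.0 and 78.7 in UNC0642 and 102, 110 and 95.5 in A366. A366 lay above both other groups there, with 0.22 ± 0.09 against DMSO and 0.37 ± 0.09 against UNC0642 (adjusted p = 0.291), neither called. DESeq2 and limma voom called the difference from UNC0642, and limma voom that from DMSO.

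**Figure D4:**
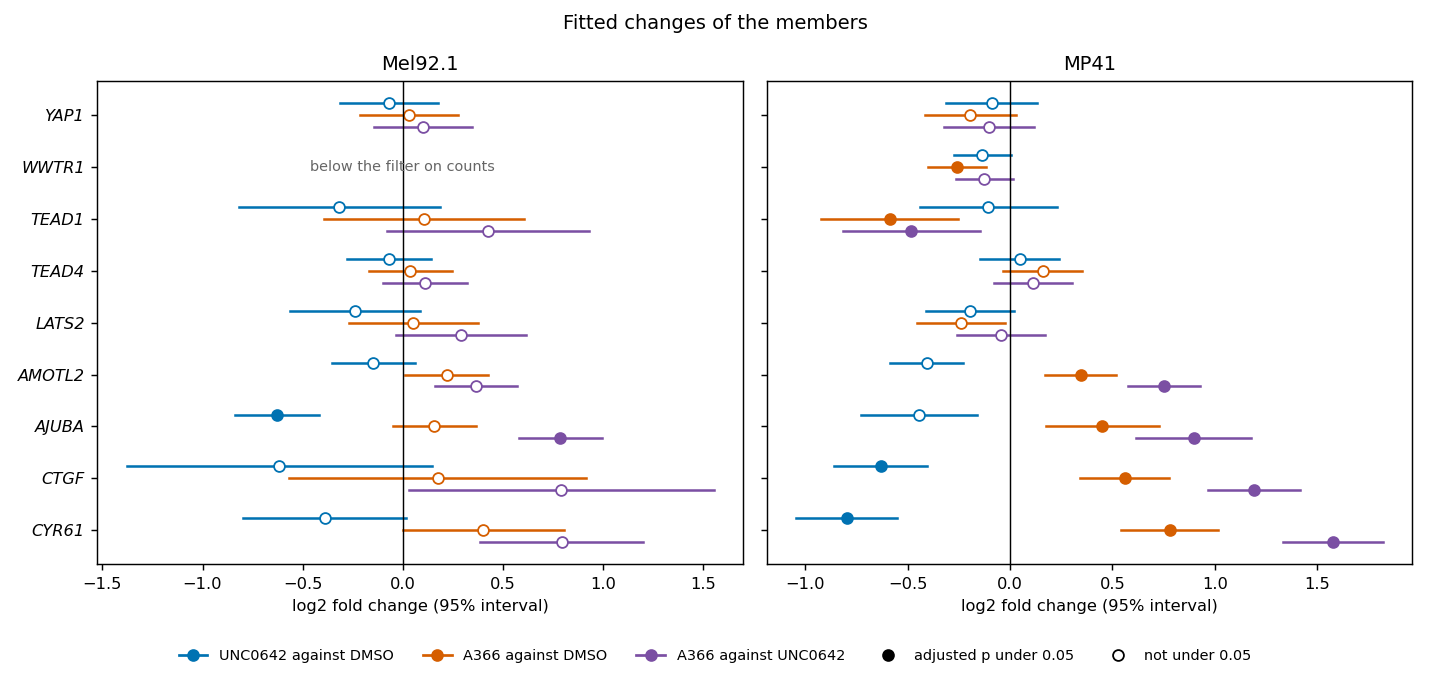
Fitted log2 fold changes (points) with 95% intervals (lines) of the 9 members tested, in Mel92.1 (left) and MP41 (right), for UNC0642 against DMSO (blue), A366 against DMSO (orange) and A366 against UNC0642 (violet), filled where the adjusted p is under 0.05. In MP41 the violet intervals of CYR61 (1.33 to 1.82), CTGF (0.97 to 1.42), AJUBA and AMOTL2 lie far above 0, and those of YAP1, TEAD4 and LATS2 include 0.

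LATS2, the kinase that phosphorylates YAP and is a target of it, was not called under either inhibitor, although with A366 in MP41 it was called lower in 5 of 18 alternatives, DESeq2 (-0.25) and limma voom (-0.32) among them. In MP41 it stood at 68.9, 58.8 and 61.2 CPM with DMSO, at 54.4, 54.1 and 56.9 with UNC0642 and at 52.0, 62.5 and 48.1 with A366. UNC0642 lay below DMSO and A366 overlapped it, with fitted changes of -0.20 ± 0.10 and -0.24 ± 0.10 (adjusted p = 0.617 and 0.0637). The inhibitors differed by -0.04 ± 0.10, with a 95% interval of -0.26 to 0.17, which lies below the intervals of the 4 genes above. Without MP41 A366 replicate 2 the change with A366 was -0.36 and called. In Mel92.1 the changes were -0.24 ± 0.15, 0.05 ± 0.14 and, between the inhibitors, 0.29 ± 0.15.

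Of the co-activators, WWTR1 fell with A366 in MP41 and YAP1 was not called. YAP1 in MP41 stood at 232, 227 and 239 CPM with DMSO, at 208, 220 and 231 with UNC0642 and at 198, 246 and 177 with A366, with overlap between all groups. Its fitted changes in MP41 were -0.09 ± 0.10, -0.19 ± 0.10 and, between the inhibitors, -0.10 ± 0.10 (95% interval -0.32 to 0.12). Without MP41 A366 replicate 2, its highest library, YAP1 was called lower against DMSO (-0.34) and against UNC0642 (-0.25). The changes of YAP1 in Mel92.1 were -0.07 ± 0.11, 0.03 ± 0.11 and 0.10 ± 0.11 (95% interval -0.14 to 0.34). WWTR1 in MP41 went from 224, 232 and 224 CPM with DMSO to 196, 212 and 214 with UNC0642 and 190, 205 and 183 with A366. Both inhibitor groups lay below DMSO, by -0.13 ± 0.06 (adjusted p = 0.597) and -0.26 ± 0.06 (adjusted p = 0.00660). With an offset for the GC content and length of genes, the change of WWTR1 with A366 was 0.07 ± 0.05 and not called, and WWTR1 was called higher with A366 than with UNC0642 (0.18), against -0.12 ± 0.06 and no call without the offset.

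Of the DNA-binding partners, TEAD1 fell with A366 in MP41 and TEAD4 did not pass the test. TEAD1 stood at 110, 113 and 109 CPM with DMSO, at 105, 100 and 105 with UNC0642 and at 72.5, 98.1 and 54.4 with A366. All A366 libraries lay below all others, but they spread widely, with an SD of 29.3% of the mean against 1.64% with DMSO. The change was -0.59 ± 0.15 against DMSO (adjusted p = 0.00868) and -0.48 ± 0.15 against UNC0642 (adjusted p = 0.0239), so TEAD1 and the 4 raised genes moved in opposite directions under A366. The call against UNC0642 was lost without UNC0642 replicate 1 or 3 or A366 replicate 1 (-0.47 to -0.45). With GC content and length offset the change against DMSO was -0.15 ± 0.08 and not called (adjusted p = 0.196, with a range of 2.58e-07 to 0.375 over 18 alternatives). TEAD4 stood at 27.4, 26.6 and 25.6 CPM in DMSO, 26.8, 28.1 and 27.5 in UNC0642 and 29, 27 and 34.4 in A366 in MP41, with changes of 0.05 ± 0.09 and 0.16 ± 0.09. With the offset TEAD4 was called lower with A366 (-0.31), and without MP41 A366 replicate 2 and with no offset it was called higher (0.23), so its direction was not settled. In Mel92.1 TEAD1 gave -0.32 ± 0.23 and 0.11 ± 0.22, and TEAD4 gave -0.07 ± 0.09 and 0.04 ± 0.09, none of them called.

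Some pairs of members are given here by how they varied within a line. Over the 9 libraries of a line, and with the libraries' depth and composition shared by all genes, CTGF and CYR61 varied together (Pearson's r of log2 CPM of 0.87 in Mel92.1 and 0.98 in MP41), as did AMOTL2 and CYR61 (0.88 and 0.97). YAP1, TEAD1 and LATS2 varied together as well, with r of 0.93 and 0.87 for YAP1 and TEAD1 and 0.91 and 0.86 for YAP1 and LATS2. CTGF and YAP1 had r of -0.07 and -0.27. Other pairs went across these, such as AJUBA with TEAD1 (0.61 in Mel92.1 and -0.60 in MP41), AMOTL2 with LATS2 (0.65 and -0.02) and TEAD4 with CTGF (0.90 and 0.43). TEAD1 also varied within groups, at 130, 84.5 and 79.8 CPM in the Mel92.1 DMSO libraries. Among 9951 genes with at least 5 CPM on average in each line, those most like CYR61 by the mean of the r of both lines were ELFN1 (0.95), ARMC9 (0.94), AMOTL2 (0.92), C1orf198 (0.91) and PEA15 (0.91). Those most like CTGF were ELFN1 (0.94), CYR61 (0.93), C1S (0.90), XBP1 (0.88) and CDK2AP2 (0.87). These are descriptions, and each includes the differences between the treatment groups.

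The placement of the 4 A366 libraries bears on every A366 value above. Without them, MP41 A366 replicate 1 alone gave changes against DMSO of 0.75 for CYR61, 0.59 for CTGF, 0.50 for AJUBA and 0.29 for AMOTL2, all 4 still called, with that library assumed to vary like the other groups. Against UNC0642 the same fit gave 1.55 for CYR61, 1.22 for CTGF, 0.94 for AJUBA and 0.70 for AMOTL2, all called. TEAD1 (-0.66) and WWTR1 (-0.30) stayed called against DMSO, and YAP1 (-0.27) and LATS2 (-0.32) were called too. In Mel92.1 the lone A366 library gave 0.39 for CYR61, 0.11 for CTGF, 0.13 for AJUBA and 0.20 for AMOTL2, none called. As labelled, which mixes the lines within the A366 groups, the MP41 comparison gave 0.32 for CYR61 and -0.44 for CTGF, neither called, and 1.48 for AJUBA, 1.37 for AMOTL2 and -0.55 for YAP1, all called, while the Mel92.1 comparison called none. Against UNC0642 in MP41 the labelled groups gave 0.19 for CTGF, which was not called, and 1.12 for CYR61, 1.93 for AJUBA and 1.78 for AMOTL2, which were. As labelled, the UNC0642 comparisons called none of the members either, since the mixed A366 groups enter the estimate of the spread.

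A difference between the lines in the response was tested for each member as an interaction. For UNC0642, 0.601% of genes and 0 of the 9 members were called, with 0 at an unadjusted p under 0.05 in edgeR and 0 called by DESeq2 and by limma voom. For A366, 13.8% of genes and 0 of the 9 members were called, with 1 at an unadjusted p under 0.05 (TEAD1), 0 called by DESeq2 and 7 by limma voom. The differences (Mel92.1 minus MP41) in the response to A366 were -0.40 ± 0.22 for CYR61, with a 95% interval of -0.86 to 0.05, and -0.41 ± 0.32 for CTGF, with one of -1.08 to 0.26. For UNC0642 they were 0.40 ± 0.22 for CYR61, with an interval of -0.07 to 0.87, and -0.04 ± 0.33 for CTGF, with an interval of -0.72 to 0.65. These intervals leave room for responses that differ by more than the changes themselves, so equal responses were not shown either.

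The genes around the members were read from 4 lists. Of 25 genes upstream in the Hippo pathway, all were tested in both lines. UNC0642 raised 1 in Mel92.1, the kinase TAOK3 (0.45 ± 0.07, adjusted p = 0.0188), and A366 raised 1, AMOT, which holds YAP in the cytoplasm (1.00 ± 0.14, adjusted p = 0.0285). AMOT went from 11.5 to 15.2 CPM with DMSO in Mel92.1 to 22.1 to 28.6 with A366, without overlap, and the call was lost without the 4 placed libraries (1.10 ± 0.20), as was that of TAOK3 (0.45 ± 0.08). In MP41 UNC0642 moved 0 of 25 in edgeR, with 3 at an unadjusted p under 0.05, beside 0.241% of all genes called. A366 in MP41 raised 2 and lowered 14, beside 46% of all genes called, 22.5% higher and 23.5% lower, with a median change of -0.36 against 0.02 over all genes. As labelled 2 rose and 10 fell, beside 32.8% of all genes called. Without the 4 placed libraries the median of the list was -0.38. The kinase TAOK1 (-1.0 ± 0.16), STRN of the phosphatase complex that opposes MST (-0.74 ± 0.12), LATS1 (-0.78 ± 0.13), the LATS co-factor MOB1B (-0.59 ± 0.10) and the cadherin FAT4 (-0.93 ± 0.18) fell, and RASSF1, which binds MST (0.76 ± 0.12), rose. With GC content and length offset, 5 rose and 7 fell, beside 34.6% of all genes called, and the median was -0.03. TAOK1 (-0.44), STRN (-0.22), LATS1 (-0.31) and FAT4 (-0.48) then stayed below 0 and called, and MOB1B (-0.06) and RASSF1 (0.25) were not called.

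Of 25 further target genes of YAP and TAZ, 22 passed the filter in Mel92.1 and 23 in MP41, and in edgeR UNC0642 moved 0 in either line and A366 moved 0 in Mel92.1, with 4 (Mel92.1, UNC0642), 1 (MP41, UNC0642) and 1 (Mel92.1, A366) at an unadjusted p under 0.05. With A366 in MP41, 5 rose and 7 fell, beside 22.5% of all genes higher and 23.5% lower, with a median of -0.05 against 0.02. As labelled 3 rose and 5 fell, beside 32.8% of all genes called. Without the 4 placed libraries the median of the list was -0.01. The growth arrest gene GADD45A (0.81 ± 0.14) and the transcription factor gene FOXF2 (0.45 ± 0.09) rose, and the membrane repair gene MYOF (-0.60 ± 0.12), the Arf regulator ASAP1 (-0.55 ± 0.13), the exchange factor DOCK5 (-0.76 ± 0.21) and PTPN14, which binds YAP (-0.48 ± 0.12), fell. With the offset 5 rose and 3 fell, beside 34.6% of all genes called. GADD45A (0.50), MYOF (-0.36) and ASAP1 (-0.26) were then called and FOXF2 (0.02), DOCK5 (-0.40) and PTPN14 (-0.09) were not. Of the 6 other TEAD partners and co-factors, 4 were tested in each line. The only call was a fall of VGLL4, which competes with YAP for TEAD, with A366 in MP41 (-0.17 ± 0.07, adjusted p = 0.0444). With the offset 0 rose and 2 fell there, beside 34.6% of all genes called. As labelled 2 rose and 0 fell, beside 32.8%, so the list had no settled direction.

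CTGF and CYR61 are also serum response genes, so immediate early genes and targets of serum response factor (SRF) were read beside them, 13 of 14 tested in each line. UNC0642 moved 0 in Mel92.1 in edgeR, with 4 at an unadjusted p under 0.05, and lowered 1 in MP41, FOS, which went from 29 ± 0.832 to 21.9 ± 1.14 CPM (-0.41 ± 0.07, adjusted p = 0.0385). A366 moved 0 in Mel92.1, with 0 at an unadjusted p under 0.05. In MP41 A366 raised 7 and lowered 1, beside 22.5% of all genes higher and 23.5% lower, with a median of 0.44 against 0.02. As labelled 4 rose and 0 fell, beside 32.8% of all genes called. Without the 4 placed libraries the median of the list was 0.35. The stress-induced factor ATF3 went from 7.28 ± 0.451 to 25.8 ± 1.24 CPM (1.80 ± 0.10, adjusted p = 8.24e-07) and JUN from 8.24 ± 1.01 to 23.4 ± 2.79 (1.48 ± 0.12, adjusted p = 1.67e-05). IER2 (0.62 ± 0.08), JUNB (0.55 ± 0.09) and the smooth muscle actin ACTA2 (0.59 ± 0.09) rose, and the adhesion protein vinculin, VCL (-0.49 ± 0.11), fell. ATF3 (1.71) and JUN (1.28) kept their calls with GC content and length offset. Under it 5 of the list rose and 3 fell, beside 34.6% of all genes called, and the median was 0.20. The part of these factors in the rise of CTGF and CYR61 was not tested.

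**Figure D5:**
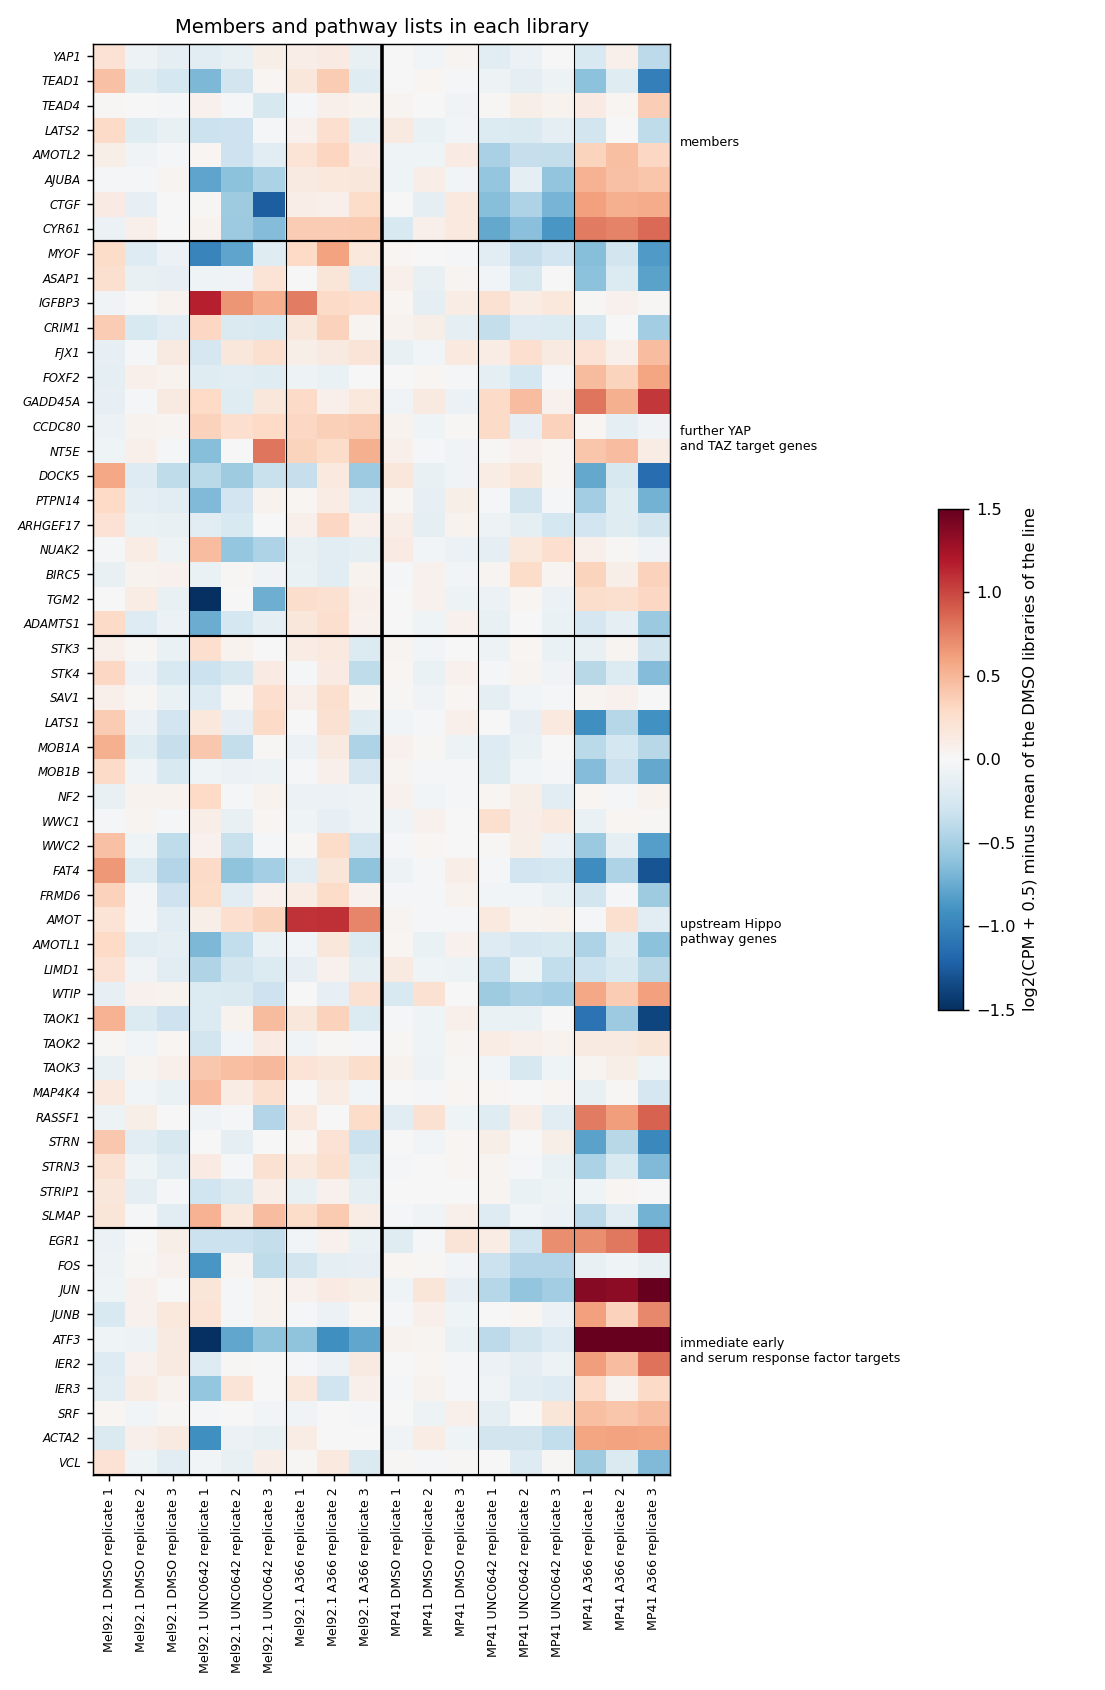
Level of the members and of 3 of the lists (rows) in each of the 18 libraries (columns), as log2(CPM + 0.5) minus the mean of the DMSO libraries of the same line, for genes at 1 CPM or more on average in both DMSO groups, with the colours ending at 1.5 in either direction. In the MP41 A366 columns CTGF, CYR61, AJUBA, AMOTL2, JUN and ATF3 are red and TEAD1, LATS1, TAOK1 and FAT4 are blue.

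The lines without inhibitor differed in the lists as well, in the comparison where 69.4% of all genes were called. Of the 25 upstream genes, 4 were higher and 16 lower in Mel92.1, led by AMOT (-2.77 ± 0.13), STRN3 (-2.02 ± 0.13), STK3, the MST2 kinase (-1.61 ± 0.11), and its partner SAV1 (-1.41 ± 0.10), with LIMD1, a LIM protein like AJUBA, higher (1.64 ± 0.12). Of the co-factors, TEAD2 (1.24 ± 0.09) and TEAD3 (1.25 ± 0.14) were higher and VGLL4 lower (-1.91 ± 0.19). Of 23 further targets tested, 5 were higher and 14 lower, with a median of -0.80 against -0.02. MYOF (-5.81 ± 0.21), IGFBP3 (-4.06 ± 0.18), TGM2 (-4.06 ± 0.32) and RBMS3 (-3.96 ± 0.25) were far lower in Mel92.1. The part of WWTR1 in these differences was not tested. MYOF stood at 1.85 ± 0.407 CPM in Mel92.1 and 105 ± 2.07 in MP41. Of 13 immediate early genes and SRF targets, 5 were higher and 4 lower, among them SRF itself (1.93 ± 0.08) and IER3 (-6.54 ± 0.15).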

How the data were processed

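RNA was sequenced from 18 libraries, and the authors deposited expected counts per gene as RSEM estimates them, with 5.85% to 13.4% of the values of a library not whole. The submitters' processing notes name Bowtie2 2.1.0, RSEM 1.2.15 and the build hg38, while the study's methods name other tools, so the deposited expected counts were taken as the file and the labels describe them. They were rounded to whole numbers and tested with edgeR 4.0.16 in R 4.3.3 (filterByExpr, TMM factors, quasi-likelihood test, Benjamini-Hochberg adjustment at 0.05). The 9 libraries of a line were fitted together for the inhibitors, and all 18 for the lines and the interactions. CPM are scaled by TMM over the 18 libraries, and values per kilobase use the longest GENCODE transcript. Intervals are 95% intervals of the fitted change, and counting error is only a part of them. The fit was tested on simulated data in which 200 genes were changed by 1.5 on the log2 scale with UNC0642. Of these edgeR recovered 173 in Mel92.1, 195 in MP41 and 179 for the line difference, with 4, 6 and 12 false calls. Smaller changes and the A366 comparisons were not simulated. A366 replicates 2 and 3 were exchanged between the lines. Members and lists were chosen with earlier results of these data known. From the other lists, at most 6 genes were named per comparison with DMSO or between lines, the lowest adjusted p first. The alternatives were DESeq2 1.42.0, limma 3.58.1 voom with quality weights, RLE factors, library size alone, no filter, a filter at a mean of 1 CPM, a replicate block, an offset for GC content and length, the labelled groups, and fits without the exchanged libraries or without each replicate. Of 26475 symbols, 23899 were matched to GENCODE by name and 714 by synonym for GC content and length. The study's own gene table was used only to check which line each library was placed in.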

Additional observations from a re-analysis of the deposited data

Results flagged for a closer look

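By the edgeR interaction (Mel92.1 minus MP41, log2 scale, 3 replicates a group), the response differed between the lines at an adjusted p under 0.05 in 0 members and 14 genes of the lists around them, where 0.601% of all genes were called for UNC0642 and 13.8% for A366. For UNC0642 this was the Hippo kinase TAOK3 alone, at 0.57. For A366 the upstream genes LATS1 (0.75), AMOT (0.97), TAOK1 (1.04) and SLMAP (0.68) had higher differences and RASSF1 (-0.64) a lower one. Of the further targets MYOF (0.98) and FOXF2 (-0.54) differed. Of the immediate early genes and SRF targets EGR1 (-1.02), JUN (-1.41), JUNB (-0.60), ATF3 (-2.64), IER2 (-0.64) and SRF (-0.48) differed. In MP41 the mean CPM of each was higher with A366 than with DMSO. In Mel92.1 the means of JUN and IER2 were slightly higher with A366 and those of EGR1, JUNB, ATF3 and SRF lower, none of them called. With GC content and length offset, TAOK3 (0.57), AMOT (0.73), TAOK1 (0.52), MYOF (0.78), JUN (-1.17) and ATF3 (-2.55) stayed past the threshold and the other 8 did not. Without the 4 exchanged A366 libraries, TAOK3 (0.57), AMOT (1.15) and JUN (-1.34) stayed past it. JUN stood at 18.7 ± 0.880 CPM with DMSO and 19.9 ± 0.400 with A366 in Mel92.1, against 8.24 ± 1.01 and 23.4 ± 2.79 in MP41. ATF3 stood at 11 ± 0.933 CPM with DMSO and 6.25 ± 0.755 with A366 in Mel92.1, a change that was not called, against 7.28 ± 0.451 and 25.8 ± 1.24 in MP41.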

How the results depend on the processing

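For UNC0642 against DMSO in Mel92.1 (1 member) the count was 0 with library size alone, with the replicate block, as labelled, without the 4 exchanged libraries and with the 6 libraries compared alone (an alternative chosen after seeing the data), and 2 with limma voom. For A366 against DMSO in Mel92.1 (0) limma voom gave 6. For UNC0642 in MP41 (2) the count was 0 with the block and as labelled and 4 with limma voom. For A366 in MP41 (6) it was 3 as labelled, beside 32.8% of all genes called. For A366 against UNC0642 in Mel92.1 (1) it was 0 with library size alone, with the block, as labelled, without the 4 libraries and with the 6 libraries alone, 3 with DESeq2 and 4 with limma voom. For the line difference in the response to A366 (0) it was 6 as labelled, beside 49.4% of all genes called, and 7 with limma voom. The shares of all genes called by limma voom are not given here. Leaving out 1 replicate gave 0 to 2 and 0 to 0 members for UNC0642 and A366 in Mel92.1, and 0 to 1 and 5 to 9 in MP41. Beside these, 0.257% to 1.24%, 0.061% to 0.102%, 0.0327% to 0.0924% and 31.5% to 52.1% of all genes were called. Between the inhibitors it gave 0 to 2 in Mel92.1 and 4 to 7 in MP41, beside 0.0339% to 0.318% and 29.3% to 50.7%. Between the lines it gave 6 to 7, beside 63.5% to 67.1%. For the interactions with UNC0642 and A366 it gave 0 to 0 and 0 to 1, beside 0.403% to 1.09% and 3.86% to 24.1%. Directions reversed with the GC and length offset, and in the same way with the replicate block added, for TEAD4 with A366 in MP41 (-0.31, with the block -0.31) and against UNC0642 (-0.32 and -0.32), for WWTR1 there (0.074 and 0.074, and 0.18 and 0.19), and between the lines for TEAD1 (0.43 and 0.43) and TEAD4 (-0.24 and -0.24). As labelled, CTGF reversed with A366 in MP41 (-0.44), and its line difference was 2.31. The cause was not tested, except that the labelled groups mix the lines. No pairing by replicate number was seen, although with 3 libraries centred on the mean of their group the check cannot exclude it. Libraries of the same number correlated over 0.1 in 1 of 9 pairs in each line. Their r ran from -0.40 to 0.51 in Mel92.1 and from -0.16 to 0.16 in MP41. Of libraries of different numbers, 7 of 18 pairs in Mel92.1 (r up to 0.61) and 1 of 18 in MP41 were over 0.1. Under the block AJUBA in Mel92.1 with UNC0642 was -0.63 with an adjusted p of 0.0536 in edgeR. Depth limits ANKRD1 everywhere, and WWTR1 and CTGF in Mel92.1.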
